A study of Mus musculus with 8 samples.

Results

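Chromatin remodelers are motor proteins that use ATP to slide, eject or exchange nucleosomes, together with the subunits that steer them. The genes described here are those whose symbols begin with *Smarc*, *Arid* or *Ino80*, or with *Chd* and a digit, in the RNA-seq count tables of Th17 cells. There were 38 such symbols among the 13704 gene symbols listed in at least 1 library, and all 38 were listed in both. With at least 10 reads over both libraries required, 36 of the 38 and 10881 genes in all were measured. Of the 38, 35 belong to the families that the symbols name, and 3 are other RNAs that carry such a name: the antisense-type transcripts *Chd3os* and *Ino80dos* and the pseudogene *Smarca5-ps*. The family members *Smarca1*, *Chd5* and *Arid3c* were listed in neither library and were not analysed further.

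Naive CD4+ T cells of C57BL/6 mice were directed to the Th17 fate over 3 days by TGFβ at 0.5 ng/ml with IL-6 at 20 ng/ml, and were re-stimulated with anti-CD3. The WT library came from wild type mice and the KO library from mice labelled TRIM28fl/flxCD4cre, in which Cre driven by the *Cd4* promoter deletes the loxP-flanked *Trim28* gene in T cells and not in Th17 cells alone. TRIM28 is a scaffold protein best known for bringing silencing factors, the remodeler CHD3 among them, to chromatin. The labels give neither the age of the mice nor how many were used, and there was 1 library per genotype, so no difference reported here has a replicate check and no p-value is given.

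The WT library held 6650066 reads and the KO library 6185108. *Trim28* had 4485 WT and 180 KO reads, and its log2 fold change (KO/WT, log2FC) was -4.53 with an exact 95% interval from -4.76 to -4.32. The T-cell markers fitted the label: all 7 were listed, with summed levels of 4064 and 3703 CPM (counts scaled to the library total). The 6 Th17 markers summed to 1671 (WT) and 528 (KO) CPM, the 4 B-cell markers to 11.3 and 7.11 CPM, and the 2 CD8 T-cell markers to 7.97 and 4.69 CPM. Of 12 myeloid, NK and erythroid markers, 10 were listed in neither library. The part of these differences in the values below was not tested, and in bulk RNA fewer cells of a type and less RNA per cell cannot be told apart.

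The remodelers fall into families named after their ATPases. BAF complexes, the mammalian SWI/SNF type, are built around SMARCA4 (BRG1) or SMARCA2 (BRM) with the SMARCB, SMARCC, SMARCD and SMARCE subunits and with ARID1A, ARID1B or ARID2. The NuRD complex joins CHD4 or CHD3 to histone deacetylases, ISWI complexes use SMARCA5, and INO80 complexes carry the INO80 motor. In T cells these machines are known to open and close cytokine and lineage genes during differentiation.

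Together the 38 symbols took 39743 WT reads and 32233 KO reads, which was 0.598% and 0.521% of all reads. The summed log2FC was -0.20, with an interval from -0.22 to -0.18 that covers counting error only, as do all intervals given here. Of the 36 measured genes, 26 differed by less than 1.5-fold, a share near the 71.5% of all measured genes. At 1.5-fold or more, 8 were lower, against 17.7%, and 2 were higher, against 10.8%. At 2-fold or more, 2 genes were lower in the KO library, *Arid4b* and *Smarca2*, against 7.94% of all measured genes, and 0 were higher, against 3.75%. *Arid5b* lay just inside 2-fold at -0.98 on the log2 scale. The median log2FC of the 36 genes was -0.16, beside -0.02 for all measured genes.

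**Figure D1:**
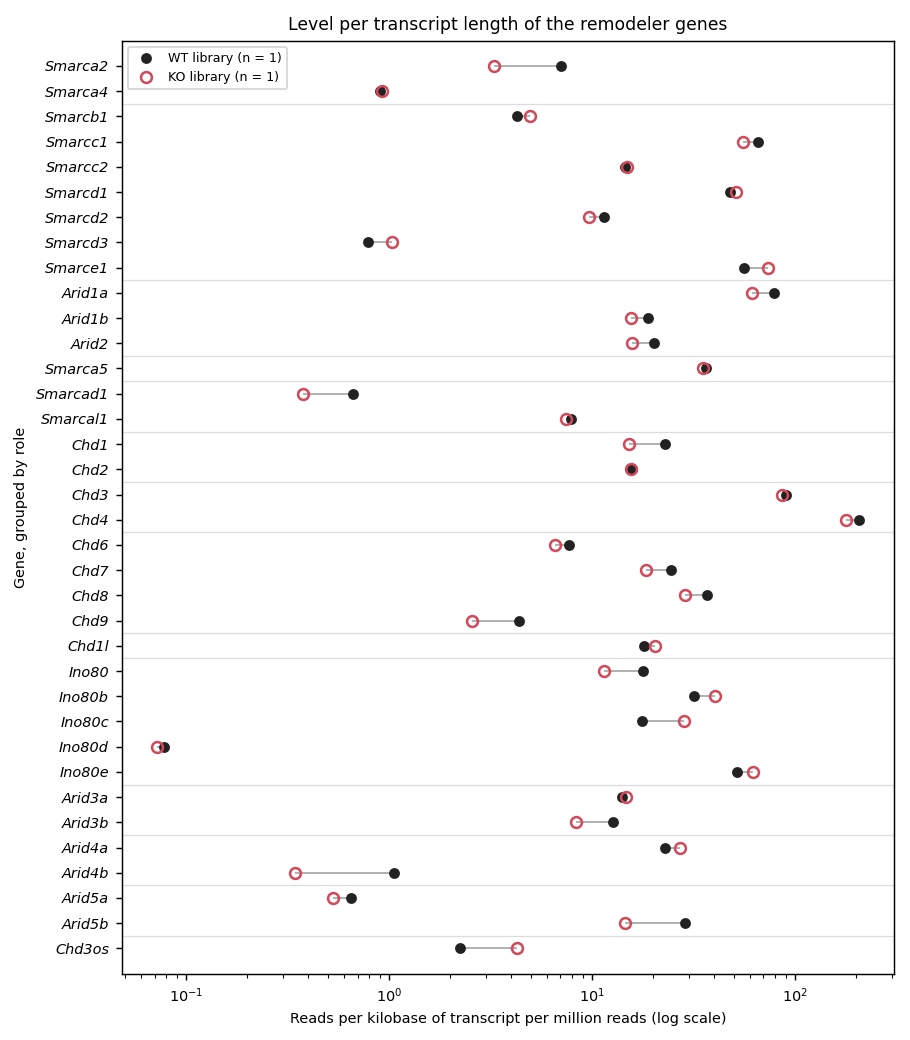
Level of each measured remodeler gene in the WT library (filled points) and the KO library (open points), in RPKM on a log axis, grouped by role. *Chd4* is the highest point in both libraries, and the pairs lie close together except for genes such as *Arid4b*, *Smarca2* and *Arid5b*.

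*Chd4*, the ATPase of NuRD, was the most abundant remodeler per transcript length. Its level was 208 RPKM (WT) and 178 RPKM (KO), that is counts scaled to the library total and to the longest curated RefSeq transcript in kilobases. *Chd3*, its paralog and the partner of TRIM28, came next with 90.9 and 86.3 RPKM, and *Arid1a* followed in the WT library with 78.8 RPKM. These genes also had most reads: 9255 in the WT and 7370 in the KO library for *Chd4*, 4399 and 3887 for *Chd3*, and 4480 and 3236 for *Arid1a*. At the low end stood *Ino80d*, at 0.0778 and 0.0717 RPKM, from 7 and 6 reads.

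Median levels over genes differed with the number of annotated transcripts. Over all measured genes, the median WT level was 13.7 RPKM for genes with 1 curated RefSeq transcript, 6.91 RPKM with 2, 4.94 RPKM with 3 and 4.68 RPKM with 4 or more. The 4 remodelers with 4 or more curated transcripts were *Smarca4* (0.907 RPKM in the WT library), *Smarcad1* (0.668 RPKM), *Arid5a* (0.649 RPKM) and *Smarcc2* (14.5 RPKM). The part of transcript number in their levels was not tested. How reads that fit several transcripts were counted is not given in the sources used here, so the low level of *Smarca4*, the core ATPase of BAF in most cells, is a level of counted reads only.

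Transcript length moved with the fold changes across the whole table, and remodeler transcripts are long. The median length of the longest curated transcript was 5787 bases for the 36 genes and 2922 bases for all measured genes, and 28 of the 36 were longer than the latter. Over 10825 genes with a length, Spearman's rho between length and log2FC was -0.40, and over the 36 remodelers it was -0.55. These are descriptions across genes that share the same pair of libraries. With the genes in 10 bins of equal size by length, the median log2FC was 0.29 in the bin of the shortest transcripts and -0.44 in that of the longest. Of the remodelers, 15 fell in the longest bin, where their median was -0.27, and 12 of these 15 lay above the median of that bin. Against the median of its own bin, each remodeler taken singly was above in 27 of 36 cases. With transcripts of at least 5000 bases, 14 of 23 remodelers were lower beyond counting error, against 53.7% of such genes, and 2 were lower by 2-fold or more, against 15.7%.

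**Figure D2:**
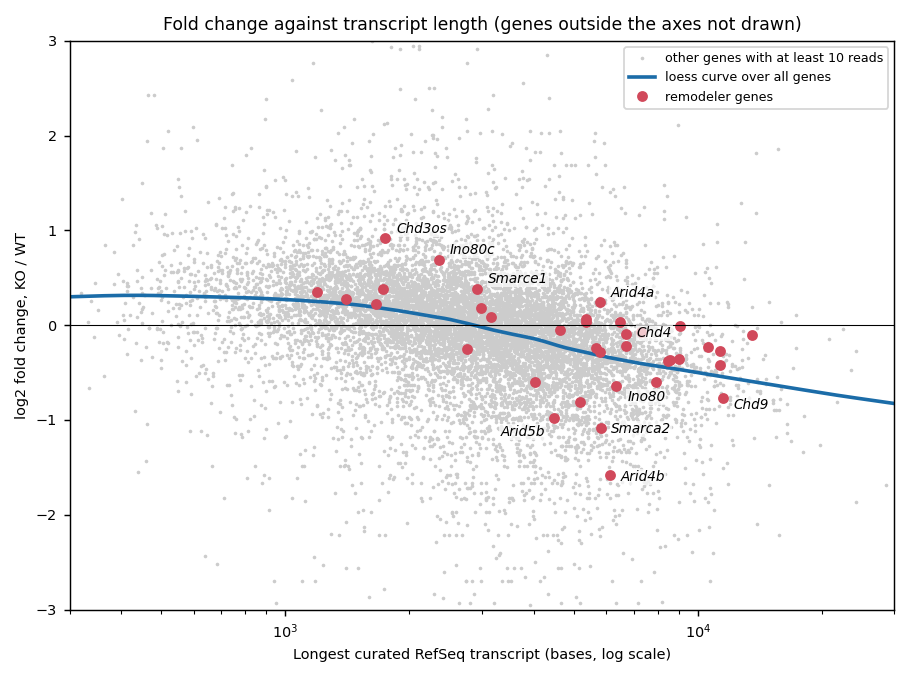
Log2 fold change (KO/WT) against the longest curated transcript in bases (log axis) for all measured genes (grey), the remodelers (red) and the loess curve over all genes (blue). The curve runs from positive values at short transcripts to negative values at long ones, and most remodelers with long transcripts lie on or above it.

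A loess curve over all genes was therefore taken off each fold change, and the values before and after are given for the remodeler genes below. With the curve taken off, the median of the 36 genes turned from -0.16 to 0.13, while that of all genes lay at 0.00. At 2-fold or more, 1 gene (*Arid4b*) was then lower, against 6.78% of all genes, and 0 were higher, against 3.47%, and 31 differed by less than 1.5-fold, against 75.6%. By the interval, 16 of the 36 genes were lower in the KO library beyond counting error, against 25.0% of all measured genes, and 6 were higher, against 23.5%. After the curve was taken off, 6 were lower, against 20.0%, and 16 were higher, against 23.0%. The interval depends on reads, of which the remodelers had more, with a median of 1002.5 over both libraries against 359 for all measured genes. Among the 28 remodelers with at least 100 reads, 15 were lower, against 29.1% of such genes, and 5 were higher, against 30.2%, while 1 was lower by 2-fold or more, against 3.43%. After the curve was taken off, 5 of the 28 were lower, against 22.7%, and 15 were higher, against 29.6%. The direction of the family as a whole thus depended on the length curve.

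For 10 genes the direction did not depend on it, nor on whether RefSeq or GENCODE lengths were used for the curve. *Arid3b*, *Arid4b*, *Arid5b*, *Chd1*, *Ino80* and *Smarca2* were lower beyond counting error both ways, as were 16.4% of all genes. *Arid4a*, *Chd3os*, *Ino80c* and *Smarce1* were higher both ways, as were 17.1%. Another 6 genes, *Arid1a*, *Arid1b*, *Chd3*, *Chd4*, *Chd6* and *Chd7*, were lower before and higher after the curve was taken off, which 0.896% of all genes did. The transcripts of these 6 run from 6697 to 11325 bases. No share among genes of like length and reads was computed, so this class cannot be read as particular to the remodelers. With GENCODE lengths, *Arid1a* and *Chd7* were no longer among those higher after. *Arid2*, *Chd8*, *Chd9* and *Smarcc1* were lower before and included 0 after, as for 7.77% of genes, and *Arid3a*, *Chd2*, *Smarca5*, *Smarcal1*, *Smarcc2* and *Smarcd1* included 0 before and were higher after, as for 4.98%. *Ino80b* and *Ino80e* were higher before only, as were 6.21%. For the remaining 8 genes both intervals included 0, as for 43.0%: *Arid5a*, *Chd1l*, *Ino80d*, *Smarca4*, *Smarcad1*, *Smarcb1*, *Smarcd2* and *Smarcd3*. These classes use RefSeq lengths. With GENCODE lengths, *Smarcal1* and *Smarcd1* included 0 after the curve too, *Ino80e* and *Smarcb1* were higher, and *Smarcd2* was lower.

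**Figure D3:**
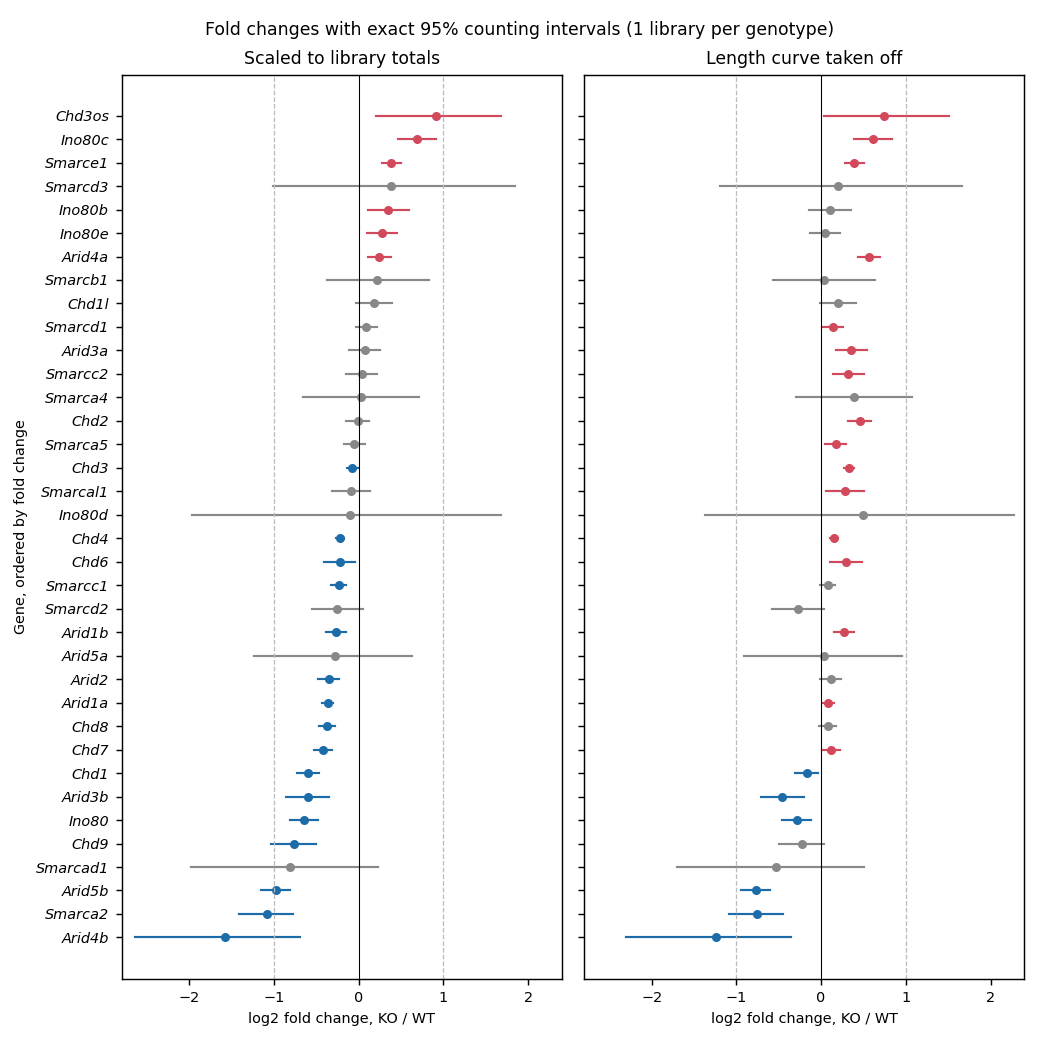
Log2 fold change (KO/WT) with exact 95% counting intervals for the 36 measured genes, scaled to library totals on the left and with the length curve taken off on the right. Blue intervals lie below 0, red ones above 0 and grey ones include 0; 16 are blue on the left and 6 on the right.

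The BAF ATPase genes parted. *Smarca2*, on chromosome 19 of GRCm38 from 26605073 to 26778321, had 272 WT and 119 KO reads, a log2FC of -1.08 (interval -1.41 to -0.77). With the length curve taken off it was -0.76 (-1.09 to -0.45). *Smarca4*, on chromosome 9 from 21616106 to 21704230, was read 39 times (WT) and 37 times (KO), with a log2FC of 0.03 (-0.66 to 0.72), or 0.39 (-0.30 to 1.08) after the curve. *Smarca2* was thus lower in the KO library, while the few *Smarca4* reads leave its direction undetermined.

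Among the core subunits of BAF, *Smarce1*, which encodes the HMG-domain subunit BAF57, was higher in the KO library. It had 1091 and 1326 reads, a log2FC of 0.39 (0.27 to 0.50) that was 0.39 (0.28 to 0.51) after the length curve. *Smarcc1*, the scaffold subunit BAF155 with a longer transcript, had 2481 and 1958 reads and went from -0.24 (-0.32 to -0.15) to 0.08 (-0.01 to 0.16). Its paralog *Smarcc2* had 519 and 494 reads and went from 0.03 to 0.32 (0.14 to 0.50). The SMARCD subunits are alternatives at one place in the complex. *Smarcd1* had 1006 and 996 reads (0.09, or 0.14 after the curve), *Smarcd2* 210 and 164 (-0.25, or -0.27) and *Smarcd3* 9 and 11 (0.38, or 0.20). Exons of *Smarcd3* share 37.2% of their bases with *Chpf2* on the opposite strand (667 and 489 reads), and since strand handling is not given in the sources used here, the few *Smarcd3* reads are uncertain. The tumour suppressor subunit *Smarcb1* had 47 and 51 reads (0.22, or 0.03 after the curve). With the GENCODE length of 7441 bases in place of 1657 its value after the curve was 0.61. The 7 core genes summed to 5363 and 5000 reads, with an interval of the log2FC from -0.05 to 0.06 before the curve.

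The ARID subunits, which give BAF complexes their identity, were lower together before the length curve. *Arid1a* had a log2FC of -0.36 (-0.43 to -0.30), *Arid2*, from 1213 and 881 reads, one of -0.36 (-0.48 to -0.23), and *Arid1b*, from 1420 and 1095 reads, one of -0.27 (-0.39 to -0.16). Their transcripts run from 8549 to 11325 bases, where the curve lies low. With it taken off they stood at 0.09, 0.11 and 0.27.

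*Chd4* and *Chd3* were lower by little. The log2FC was -0.22 (-0.27 to -0.18) for *Chd4* and -0.07 (-0.14 to -0.01) for *Chd3*, and after the length curve these were 0.15 (0.11 to 0.20) and 0.33 (0.27 to 0.39). *Chd3os* lies 631 bases from the end of *Chd3* on the opposite strand, and RefSeq lists it under the symbol *Rnf227*. It had 26 reads in the WT and 46 in the KO library, a log2FC of 0.92 (0.20 to 1.68), the highest of the measured symbols. Its exons share no base with those of *Chd3* in the annotation.

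*Chd1*, whose chromodomains bind methylated histone H3 at active promoters, had 1213 and 745 reads. Its log2FC was -0.60 (-0.73 to -0.47) and -0.17 (-0.30 to -0.04) after the curve. *Chd2*, its closest relative, had 952 and 877 reads and a log2FC of -0.01 (-0.15 to 0.12), whose sign turned under TMM and DESeq2 scaling. After the curve *Chd2* stood at 0.46 (0.32 to 0.59). Its exons share 634 of 9071 bases with the long non-coding RNA *Chaserr* on the same strand, which had 489 and 473 reads, so reads there cannot be told apart.

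The third CHD group, large ATPases of which CHD7 and CHD8 are linked to developmental disorders, was lower throughout before the curve. *Chd9* was lowest with 334 and 182 reads and a log2FC of -0.77 (-1.04 to -0.51). *Chd7* (1850 and 1286 reads) and *Chd8* (2095 and 1504 reads) stood at -0.42 and -0.37, and *Chd6* (542 and 431 reads) at -0.23. After the length curve *Chd9* stood at -0.22, *Chd8* at 0.08, *Chd7* at 0.12 and *Chd6* at 0.29. *Chd1l*, a poly(ADP-ribose)-activated relative in DNA repair, had 358 and 378 reads and a log2FC of 0.18 (-0.03 to 0.40), or 0.20 (-0.01 to 0.42) after the curve.

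Within the INO80 complex, the motor *Ino80* and the subunits *Ino80b*, *Ino80c* and *Ino80e* went opposite ways before the length curve. With RefSeq lengths, only *Ino80c* of these subunits stayed higher beyond counting error after it. *Ino80*, on chromosome 2 from 119373042 to 119478685, had 757 and 450 reads, a log2FC of -0.65 (-0.82 to -0.48) and of -0.29 (-0.46 to -0.12) after the curve. *Ino80c*, on chromosome 18, had 277 and 416 reads and was higher by 0.69 (0.47 to 0.92), or 0.61 (0.39 to 0.83) after the curve. *Ino80b* (252 and 299 reads) and *Ino80e* (483 and 543 reads) were higher by 0.35 and 0.27, but after the curve by 0.10 and 0.05 with intervals that include 0. For *Ino80e* this depended on the length used: GENCODE lists 5328 bases rather than 1403, and with it the value after the curve was 0.52 (0.34 to 0.70). *Ino80d*, with 7 and 6 reads, stood at -0.10 and at 0.49 after the curve, with intervals that include 0. The *Ino80* transcript is 6354 bases long, while those of the subunits *Ino80b*, *Ino80c* and *Ino80e* run from 1191 to 2360 bases. Exons of *Ino80e* also share 17.3% of their bases with *Doc2a* and 9.21% with *Hirip3* on the opposite strand.

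The other SMARC ATPases serve chromatin assembly, replication and repair. *Smarca5*, the ISWI motor SNF2H, had 1127 and 1011 reads and a log2FC of -0.05 (-0.18 to 0.07), or 0.17 (0.05 to 0.29) after the curve. *Smarcal1*, which rewinds DNA at stalled forks, had 354 and 309 reads and went from -0.09 (-0.32 to 0.13) to 0.29 (0.06 to 0.51). Both were higher beyond counting error only after the curve. For *Smarcal1* this depended on the length used: with the GENCODE length of 4003 bases in place of 6715 it was -0.01. *Smarcad1*, a known binding partner of TRIM28, had only 23 and 12 reads, and its log2FC of -0.81 (-1.97 to 0.23), or -0.53 (-1.70 to 0.50) after the curve, gives no direction. The pseudogene *Smarca5-ps*, whose sequence resembles *Smarca5*, had 2 and 5 reads, and *Ino80dos* had 1 and 2, below the minimum of 10.

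Outside the remodeling complexes, ARID proteins of the ARID3 and ARID5 type bind AT-rich DNA. *Arid5b*, a DNA-binding partner of the histone demethylase PHF2, lies on chromosome 10 from 68092523 to 68279355. It had 856 and 404 reads, a log2FC of -0.98 (-1.15 to -0.81), and of -0.77 (-0.95 to -0.60) after the length curve. With the GENCODE length of 7581 bases in place of 4494 it was -0.59. *Arid5a*, which stabilises *Il6* and *Stat3* messages, had only 25 and 19 reads and went from -0.28 (-1.23 to 0.63) to 0.04 (-0.91 to 0.95). *Arid4b*, of the SIN3 deacetylase complex, had the lowest value of all, -1.58 (-2.64 to -0.70) from 43 and 13 reads, and it remained past 2-fold after the curve at -1.24. Its paralog *Arid4a* had 881 and 971 reads, was higher by 0.24 (0.11 to 0.38), and stood at 0.57 (0.43 to 0.70) after the curve. *Arid3b* had 342 and 209 reads, a log2FC of -0.60 (-0.86 to -0.35), or -0.46 (-0.72 to -0.21) after the curve. *Arid3a*, known from B cells as Bright, had 502 and 490 reads and went from 0.07 (-0.11 to 0.25) to 0.36 (0.17 to 0.54).

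Ratios between paralogs within a library do not depend on how the libraries are scaled. *Smarca2* took 87.5% of the reads of the pair *Smarca2* and *Smarca4* in the WT library (exact binomial 95% interval 83.3% to 90.9%) and 76.3% in the KO library (68.8% to 82.7%). *Smarca4* had only 39 and 37 reads, and how reads that fit several transcripts were counted is not given. This share is therefore one of counted reads only and does not show which ATPase prevails. *Chd1* took 56.0% of the pair *Chd1* and *Chd2* in the WT library (53.9% to 58.1%) and 45.9% in the KO library (43.5% to 48.4%), so that the order of this pair turned in reads. Per transcript length, *Chd1* and *Chd2* stood at 23.0 and 15.8 RPKM in the WT library. In the KO library they were nearly equal, at 15.2 and 15.6 RPKM. Reads shared with *Chaserr* may be among those of *Chd2*. *Arid3a* took 59.5% of its pair with *Arid3b* (56.1% to 62.8%) and 70.1% (66.6% to 73.5%), and *Arid4b* 4.65% of its pair with *Arid4a* (3.39% to 6.22%) and 1.32% (0.705% to 2.25%). Of 10 paralog groups, 6 held a member whose intervals did not overlap between the libraries: these 4 pairs, *Chd3* with *Chd4*, and *Chd9* among *Chd6* to *Chd9*. No such share over other gene families was computed, so this count cannot be read as particular to the remodelers. Overlap of share intervals is also not the same as an unchanged ratio. The log2 change of the ratio *Smarcc1* to *Smarcc2* was -0.27 (-0.47 to -0.07). That of *Smarcd1* to *Smarcd2* was 0.34 (0.01 to 0.67). The log2 change of the ratio *Arid1a* to *Arid1b* was -0.09 (-0.23 to 0.04) and that of *Chd7* to *Chd8* was -0.05 (-0.19 to 0.10), intervals that allow no more than small shifts. The *Chd3* to *Chd4* ratio changed by 0.15 (0.07 to 0.23).

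**Figure D4:**
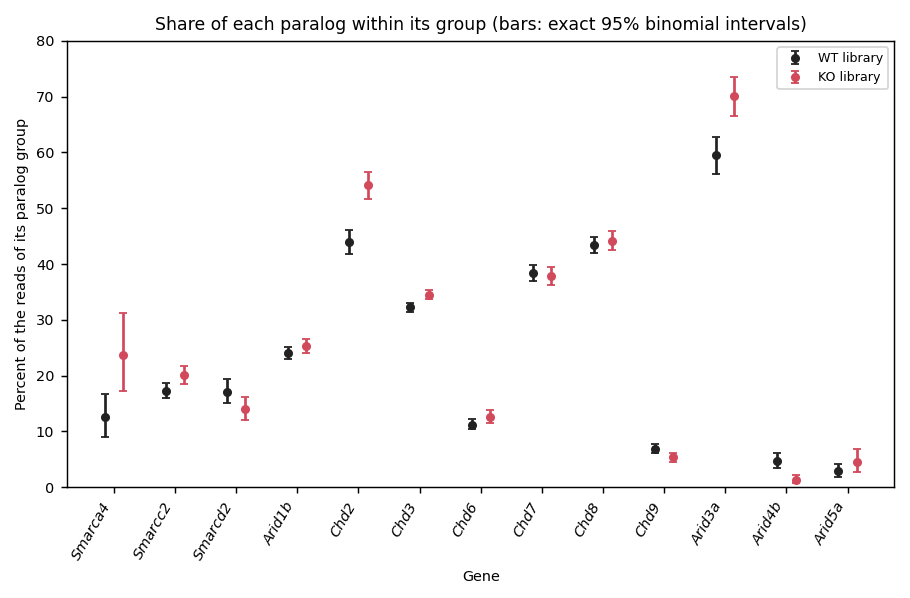
Percent of the reads of a paralog group taken by single members in the WT (black) and KO (red) libraries, with exact 95% binomial intervals. *Chd2* moves from 44.0% to 54.1% and *Arid3a* from 59.5% to 70.1%, whereas *Arid1b*, *Chd7* and *Chd8* overlap between the libraries.

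A list of 75 partner genes was read as well, of which 69 were measured. It held other subunits of BAF, NuRD and ISWI complexes and of the INO80, SRCAP and TIP60 complexes. It also held 10 other SNF2 ATPases, which are not subunits of these complexes. At 2-fold or more, 4 were lower, against 7.94% of all measured genes, and 0 were higher, against 3.75%. Their median log2FC was 0.01, and 0.10 after the length curve. The 4 were *Bcl11b*, a T-cell identity factor found in BAF (142 and 51 reads, -1.36, -1.86 to -0.90), its relative *Bcl11a* (11 and 0 reads), the TIP60 ATPase *Ep400* (31 and 8 reads, -1.79) and the ISWI partner *Baz2b* (327 and 145 reads, -1.07). *Bcl11a* was 3.41-fold lower if a floor of 3 reads is set in the KO library. Its counting interval reached up to a log2FC of -1.22, or -0.88 after the curve. *Bcl11b* and *Baz2b* stood at -0.93 and -0.63 after the curve, and *Ep400* at -1.26. The BAF partner *Dpf1* (33 and 16 reads) went from -0.92 to -1.01. After the curve 3 partners were thus lower by 2-fold or more, *Bcl11a*, *Ep400* and *Dpf1*, against 6.78% of all genes. By the interval, 20 partners were lower and 21 higher, against 25.0% and 23.5% of all measured genes.

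The partner genes with most reads are given by list, with the log2FC before and after the curve. In NuRD, *Mta2* had 3212 and 2960 reads (-0.01, or 0.02) and *Mta1* 2885 and 3064 (0.19, or 0.19), while the deacetylase *Hdac1* had 2239 and 2792 (0.42, or 0.28). No gene of the 12 NuRD partners was past 2-fold, with *Gatad2b* nearest at -0.98 (-0.57 after the curve) from 577 and 271 reads. In the INO80, SRCAP and TIP60 list most reads were those of the scaffold *Trrap*, with 3086 and 2076 (-0.47, or 0.10 after the curve), and of the zinc finger factor *Yy1*, with 1193 and 1074 (-0.05, or 0.28). The AAA+ ATPase *Ruvbl2* had 895 and 1254 reads (0.59, or 0.41). Most reads in the BAF list were those of *Dpf2*, with 1556 and 1537 (0.09, or 0.16), and of *Pbrm1*, with 1293 and 1122 (-0.10, or 0.34). The ISWI partners *Baz1b* and *Bptf* had 3115 and 2893 (-0.00208, or 0.36), and 2576 and 1941 (-0.30, or 0.25). Among the other SNF2 ATPases, *Atrx*, which guards heterochromatin, had 2208 and 1210 reads (-0.76, or -0.25 after the curve), and *Rad54l2* had 754 and 544 (-0.37, or 0.11).

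**Figure D5:**
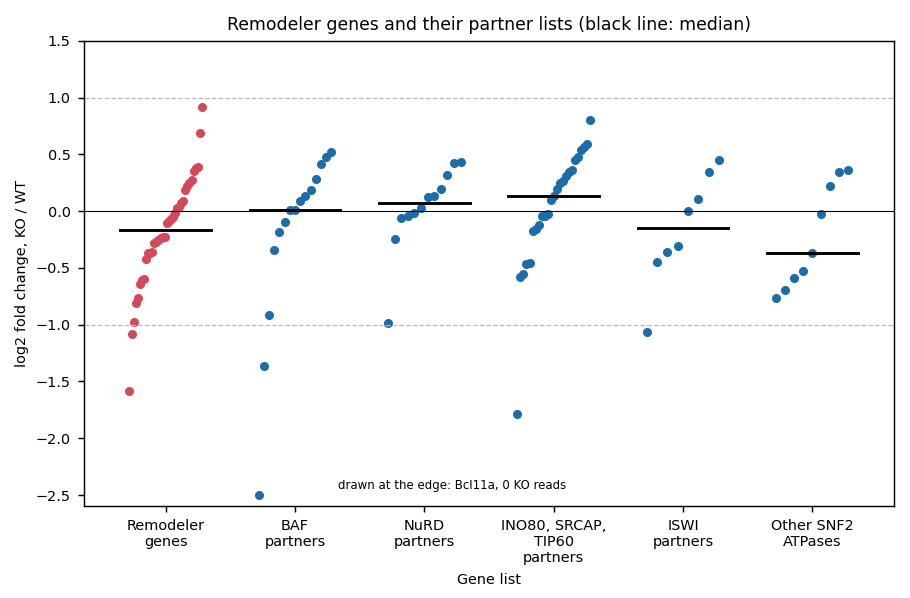
Log2 fold change (KO/WT) of the remodeler genes (red) and of 5 lists of partner genes (blue), each point a gene and each black line a median, with dashed lines at 2-fold. The medians run from -0.37 for the other SNF2 ATPases to 0.14 for the INO80, SRCAP and TIP60 list, and *Bcl11a*, with 0 reads in the KO library, is drawn at the lower edge.

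To show the start regions of a motor gene that was lower in the KO library both ways and of one that was not, the letters upstream of *Smarca2* and *Smarca5* are printed from RefSeq GRCm38.p6, outside annotated exons and with each CG in capitals. That of *Smarca2* is chr19:26604910-26605072 on the plus strand (163 bases) and that of *Smarca5* is chr8:80739460-80739709 on the minus strand (250 bases).
Smarca2: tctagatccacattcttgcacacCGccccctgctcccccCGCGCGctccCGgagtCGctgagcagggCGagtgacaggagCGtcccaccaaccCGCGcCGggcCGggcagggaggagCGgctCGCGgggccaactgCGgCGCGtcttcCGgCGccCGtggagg
Smarca5: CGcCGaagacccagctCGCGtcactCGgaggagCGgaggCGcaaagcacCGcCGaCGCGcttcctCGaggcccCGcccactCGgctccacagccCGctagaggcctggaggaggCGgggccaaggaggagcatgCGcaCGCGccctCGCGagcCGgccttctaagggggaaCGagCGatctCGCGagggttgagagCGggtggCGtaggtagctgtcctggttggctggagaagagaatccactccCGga
They hold 21 and 29 CG. A RefSeq window of the 250 bases before a start was found for 26 of the 38 symbols, with 33 windows in all, of which 23 reach into an exon of another transcript or gene. In 27 of the 33 (81.8%) there were at least 10 CG, against 37.8% of all 32851 windows. All windows include those of genes not measured here. No share over the measured genes alone was computed, so the difference cannot be read as particular to the remodelers. The motif TTCNNNGAA, the letters that STAT factors bind and that read alike on both strands, was in 2 of the 33 windows, those of *Arid4b* and *Arid5b*, against 7.02% of all windows. Other motifs were searched on either strand. AGGTCA was in 0 of the 33, against 14.0% of all windows, CCAAT in 9, against 33.85%, and CCGCCC in 23, against 32.7%. A match is a description of letters and not a binding site.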

How the data were processed

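RNA-seq was measured in 1 WT and 1 KO library, and the ChIP-seq samples were not analysed here. The authors mapped reads to mm10 with SOAP2 and deposited a count of uniquely assigned reads for each gene, not normalized. The submitters' processing notes also name bcl2fastq, Bowtie, HTSeq and SICER 1.1 without roles, and the annotation is not given in the sources used here. Genes with no reads are not listed, so a missing gene was given 0 reads. At these depths 3 reads are 0.451 CPM in the WT and 0.485 CPM in the KO library.

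Positions, transcript numbers, lengths and GC content came from RefSeq GRCm38.p6, the assembly behind mm10. Of the 13704 symbols, 12841 matched directly, 803 by a unique older symbol and 60 not at all, and 99.5% of measured genes had a length. After scaling to library totals, log2FC was taken on counts plus 0.5. Exact (Clopper-Pearson) 95% intervals came from the share of a gene's reads that lay in the KO library, and intervals of ratios from the exact conditional odds ratio (SciPy 1.17.1). Reads carried no molecular identifiers and are not independent molecules, so the intervals cover counting error alone. The length curve was a loess fit (statsmodels 0.14.6, span 0.3) of log2FC on log2 length over all measured genes. The quasi-likelihood test of edgeR cannot be run on 1 library per genotype, so no test was made. The calculations were tested on simulated data. Alternatives were TMM factors (edgeR 4.0.16), DESeq2 1.42.0 size factors, upper-quartile scaling, 5 added to each count, 4 other read filters, loess on GC content and a 1.5-fold limit. Loess on GENCODE M21 transcript length was chosen after seeing the data. All members with at least 10 reads are named, and partner genes where past 2-fold or among the 2 with most reads in their list, while *Hdac1*, *Gatad2b*, *Ruvbl2* and the genes that overlap members were chosen after their values were seen. The genes and lists were chosen with earlier results of these data known.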

Additional observations from a re-analysis of the deposited data

How the results depend on the processing

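No paired analysis was possible because there was 1 library per genotype, which also leaves no replicate to leave out. TMM factors, DESeq2 size factors, upper-quartile scaling and 5 added to each count kept every count of remodeler and partner genes within 1.5 times, and the scalings moved the median of all genes by at most 0.02. With the length curve taken off, the remodeler genes past 2-fold lower went from 2 to 1, those lower beyond counting error from 16 to 6 and those higher from 6 to 16, and 14 of the 36 genes changed sign. With GENCODE lengths, chosen after seeing the data, these counts were 1, 7 and 14. The partner genes past 2-fold lower went from 4 to 3 with RefSeq lengths and to 2 with GENCODE lengths. With the GC curve taken off, 1 remodeler gene (*Chd3os*) was past 2-fold higher. With at least 1 read required, 1 (*Smarca5-ps*) was past 2-fold higher. With at least 100 reads, 1 remodeler (*Smarca2*) and 2 partner genes were past 2-fold lower, and with at least 10 reads in each library 2 partner genes were. At a 1.5-fold limit, 8 remodelers and 9 partner genes were lower, against 17.7% of all measured genes, and 2 of each were higher, against 10.8%. The cause of these changes was not tested beyond the alternatives' own construction. Single-gene values under the alternatives numbered 386, of which 343 moved by less than the gene's counting error and 43 by more. The read filters leave a gene's value unchanged by construction, and the scalings shift all genes alike, so the 343 are no measure of stability. All 43 came from the loess curves: 22 with RefSeq length, 18 with GENCODE length and 3 with GC content. In all, 34 values changed sign. Depth limits most the 8 remodelers with under 100 reads, *Ino80d*, *Smarcd3*, *Smarcad1*, *Arid4b*, *Arid5a*, *Chd3os*, *Smarca4* and *Smarcb1*, which have the widest intervals and include the lowest and the highest value.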
